A study of Mus musculus with 5 samples.

Results

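The regions described here are 260 H3K27me3 peaks that were called over promoters in K27M cells and were not overlapped by any H3K27me3 peak of EZHIP cells. They were chosen by position alone, as peaks of the K27M list on chromosomes 1 to 19 that contain the start site of at least 1 protein-coding gene and share no base with a peak of the EZHIP list. The K27M list held 3736 peaks, of which 3338 lay on these chromosomes and 1646 of those contained a protein-coding start site. The K27M-only promoter peaks were thus 15.8% of the K27M promoter peaks, and the other 1386 are called shared promoter peaks here. Because the K27M and EZHIP calls chose the members, their number, their width and the lack of called EZHIP peaks in them are descriptions and no findings. The start sites in the 260 peaks belonged to 278 gene models with 275 symbols, which was 1.3% of the 21418 protein-coding genes on these chromosomes and 14.5% of the 1915 genes whose start site lay in a K27M peak.

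The lists come from ChIP-Seq with an H3K27me3 antibody in mouse embryonic fibroblasts (MEFs) that carry loxP sites in Eed, the gene of a core component of the Polycomb Repressive Complex 2 (PRC2). Cells were stably transduced with a lentivirus for H3.3 K27M, for H3.3 K27R or for human EZHIP, and each group had 1 library. The untransduced floxed cells and the Eed deletion line, a single clone, were not analysed here. By the study's methods the cells came from a mid-gestation embryo, the vector drove the transgenes from the EF1a promoter, and transduced cells were selected with puromycin. The smallest gap between neighbouring peaks on these chromosomes was 5200 bp in the K27M list, 1200 bp in the EZHIP list and 0 bp in the K27R list, so that neighbours were not joined alike, and the part of this in the results was not tested. The deposited lists gave positions without heights or read counts, so that depth was unknown, no value could be set against replicate spread and no test between conditions was possible. The 95% intervals given below are exact (Clopper-Pearson) for shares and from order statistics for medians, cover counting error only and take peaks as independent.

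PRC2 trimethylates lysine 27 of histone H3, and the mark is a hallmark of silenced developmental genes. In mammalian cells PRC2 is recruited largely to CpG islands, stretches rich in unmethylated CG dinucleotides that often hold a promoter, and the mark can spread from there into broad domains because PRC2 is stimulated by its own product. In H3 K27M, methionine replaces that lysine and the mutant histone inhibits PRC2, and EZHIP, expressed in PFA ependymoma, inhibits the same complex through a similar peptide. H3.3 K27R lacks the lysine as well but is not known as such an inhibitor, and its list is used below as the map of regions that carried the mark.

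The start windows of 5 members are shown to give the range of CG content among these promoters, and CG dinucleotides are in capitals. Each window runs 5′ to 3′ on the strand of its gene from 250 bp before to 50 bp after the start site, in the mm9 (NCBIM37) sequence. Pax3 lay in the widest member that was not mostly repeated sequence (chr1:78193660-78193959, minus strand, 14 CG dinucleotides). Ttc34 had the most CG dinucleotides of all 278 genes (chr4:154230059-154230358, plus strand, 55), and Gnai1, which encodes a G protein subunit, was among the 5 highest (chr5:17866182-17866481, minus strand, 53). Coil had 1 (chr11:88831316-88831615, plus strand), and 4931408C20Rik had none (chr1:26744256-26744555, minus strand).
Pax3: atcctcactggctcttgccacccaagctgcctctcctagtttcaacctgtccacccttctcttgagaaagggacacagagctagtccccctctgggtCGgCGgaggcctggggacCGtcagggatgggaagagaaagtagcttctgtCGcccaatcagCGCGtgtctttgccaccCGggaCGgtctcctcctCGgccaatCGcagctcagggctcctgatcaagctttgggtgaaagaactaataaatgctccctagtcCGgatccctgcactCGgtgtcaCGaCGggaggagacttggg
Ttc34: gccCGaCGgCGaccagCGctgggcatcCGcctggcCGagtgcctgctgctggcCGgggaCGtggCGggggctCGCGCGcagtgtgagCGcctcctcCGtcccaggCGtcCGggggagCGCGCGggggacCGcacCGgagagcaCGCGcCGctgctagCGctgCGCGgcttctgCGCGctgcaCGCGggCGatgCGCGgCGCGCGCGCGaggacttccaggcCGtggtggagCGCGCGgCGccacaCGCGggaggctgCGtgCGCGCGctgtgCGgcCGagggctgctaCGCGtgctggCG
Gnai1: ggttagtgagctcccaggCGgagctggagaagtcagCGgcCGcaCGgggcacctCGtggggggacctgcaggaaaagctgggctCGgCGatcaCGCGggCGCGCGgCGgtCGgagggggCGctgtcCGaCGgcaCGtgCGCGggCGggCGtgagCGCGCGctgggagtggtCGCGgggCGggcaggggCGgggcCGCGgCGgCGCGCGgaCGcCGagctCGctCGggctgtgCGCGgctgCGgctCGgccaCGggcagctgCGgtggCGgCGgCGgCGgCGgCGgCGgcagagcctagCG
Coil: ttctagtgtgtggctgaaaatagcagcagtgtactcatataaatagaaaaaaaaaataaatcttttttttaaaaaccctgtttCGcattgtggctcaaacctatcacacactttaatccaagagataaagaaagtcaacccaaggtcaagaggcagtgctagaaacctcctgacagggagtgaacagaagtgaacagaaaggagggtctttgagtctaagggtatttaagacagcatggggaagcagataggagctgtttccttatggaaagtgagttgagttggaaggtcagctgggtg
4931408C20Rik: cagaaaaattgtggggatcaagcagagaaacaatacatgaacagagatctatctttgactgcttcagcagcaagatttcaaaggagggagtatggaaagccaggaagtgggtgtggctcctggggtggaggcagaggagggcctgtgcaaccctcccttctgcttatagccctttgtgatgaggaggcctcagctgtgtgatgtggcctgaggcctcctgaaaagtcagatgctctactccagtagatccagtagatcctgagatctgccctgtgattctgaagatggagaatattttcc

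The 278 windows held a median of 18 CG dinucleotides (95% interval 16 to 20, quartiles 10 and 27), and the 1637 genes of shared promoter peaks held a median of 17 (17 to 18). Genes whose start site lay in a K27R region but in no K27M peak had a median of 5 (n = 4130), and all protein-coding genes had a median of 12. The sequence at the start site was not used to choose the peaks. By this measure the K27M-only promoters resembled the shared promoters, with overlapping intervals, and both lay above the promoters with a K27R region and no K27M peak. The median G+C content was 61.8% (60.0 to 63.3) in K27M-only promoters, 61.7% in shared promoters and 51.7% in promoters with a K27R region and no K27M peak. Among the member genes, Cadps2, a factor of vesicle release, had 54 CG dinucleotides in its window, Sdk1, a synaptic adhesion protein, had 53 and Tox3 had 52. At the other end, Kif12, Slc5a7, which encodes the choline transporter of cholinergic neurons, Gm6020 and Olfr95 each had 1, as had Coil.

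**Figure D1:**
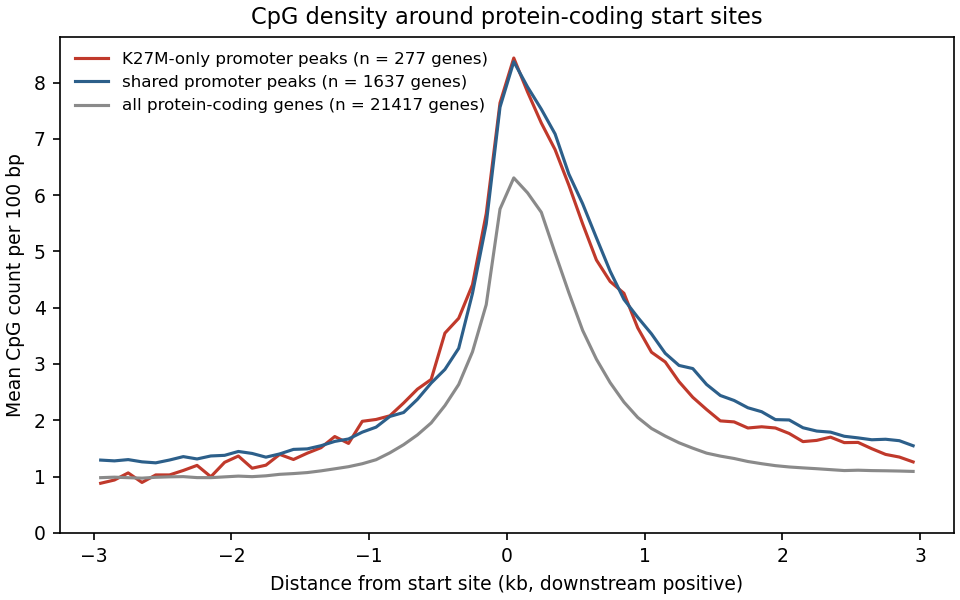
Mean number of CG dinucleotides per 100 bp (y axis) by distance from the protein-coding start site in kb (x axis, downstream positive), for genes of K27M-only promoter peaks, of shared promoter peaks and all genes. The curves of both peak classes reach 8.44 and 8.37 per 100 bp just after the start site, against 6.31 for all genes. In each of the sets of member genes and all genes, 1 gene too close to a chromosome end is left out.

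A CpG island overlapped 228 of the 260 K27M-only promoter peaks, or 87.7% (83.1 to 91.4). In shared promoter peaks the share was 91.0% (89.3 to 92.4), and in the 587 K27M-only peaks without a protein-coding start site it was 21.0% (17.7 to 24.5). The K27M-only peaks at promoters and those elsewhere thus differed beyond counting error. The rule picks the former by start site, and 46.7% of all protein-coding start sites lay in an island. Wide peaks have more room for an island, so the shares were also taken within classes of width. Under 4 kb an island lay in 84.0% of 106 K27M-only and 80.8% of 104 shared promoter peaks, and from 4 to 8 kb in 93.4% of 121 and 88.1% of 327. The intervals of both kinds overlapped in these classes and in the class from 8 to 16 kb (87.0% of 23 and 91.8% of 438). Only in the class of 16 kb or more did they not overlap, with 60.0% of 10 (26.2 to 87.8) against 94.2% of 517 (91.8 to 96.1). The 4 peaks without an island in that class were the 4 widest members, which lie mostly in repeated sequence. With islands of at least 500 bp, the shares over all widths were 67.7% (61.6 to 73.3) in K27M-only and 75.5% (73.2 to 77.8) in shared promoter peaks.

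An island lay at the start site itself for 180 of the 278 genes, or 64.7% (58.8 to 70.4), against 61.6% of genes in shared peaks, 23.1% of genes with a K27R region and no K27M peak at the start site and 46.7% of all genes. Within the members that had an island, the summed island length was a median of 835 bp (776 to 970), against 1047 bp (995 to 1092) in the wider shared peaks. The 32 members without an island included 5 in repeated sequence and 27 others with a median width of 3.4 kb. Short motifs at the start were searched on both strands of the 300 bp window. TATAAA occurred in 8.63% of K27M-only, 8.55% of shared and 13.5% of all promoters. CCAAT was found in 28.1%, 33% and 37.6% of them, and GGGCGG, the core of the GC box, in 57.2%, 58.3% and 43.7%. A match is a description of letters and shows no binding.

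The K27M-only promoter peaks were narrow. Their median width was 4.4 kb (4.0 to 4.8, quartiles 2.8 and 6.2 kb), with a range from 1.2 to 51.4 kb, and they summed to 1.5 Mb. Shared promoter peaks had a median width of 12 kb (11.4 to 12.8) and reached 319 kb, and K27M-only peaks without a start site had a median of 3.4 kb (3.2 to 3.6). Under 4 kb there were 106 members, or 40.8%, against 7.50% of shared promoter peaks, and only 10 members, or 3.85%, reached 16 kb, against 37.3% of the shared peaks. Read by class, 50.5% (43.5 to 57.4) of 210 promoter peaks under 4 kb were K27M-only, as were 27% (22.9 to 31.4) of 448 from 4 to 8 kb, 4.99% (3.19 to 7.39) of 461 from 8 to 16 kb and 1.90% (0.914 to 3.46) of 527 that were wider. A wide peak offers more length on which an EZHIP peak can fall, so that width is tied to the rule. How much of the gradient comes from this was not tested.

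**Figure D2:**
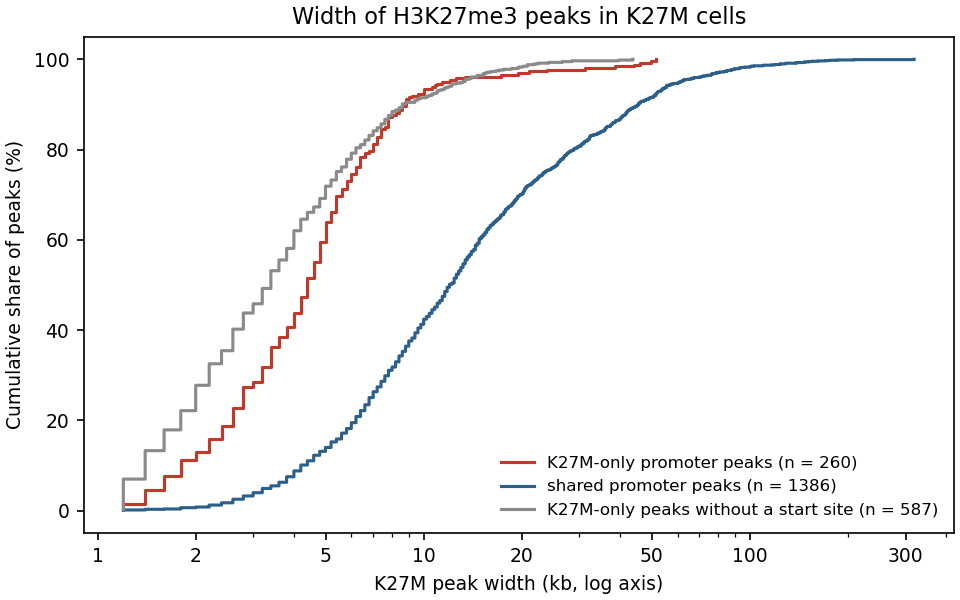
Cumulative share of K27M peaks (y axis, percent) by peak width in kb (x axis, log scale) for K27M-only promoter peaks, shared promoter peaks and K27M-only peaks without a protein-coding start site. The curve of the K27M-only promoter peaks crosses 50% at 4.4 kb, near that of K27M-only peaks without a start site at 3.4 kb and left of the shared promoter peaks at 12 kb.

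The 4 widest members were unlike the rest. They lay at C130026I21Rik (chr1:85239401-85290800, 51.4 kb), at Sp110 and Sp140, interferon-regulated nuclear body proteins (chr1:87475801-87525400, 49.6 kb), at A530032D15Rik (chr1:85065601-85111800, 46.2 kb) and at Smok2a, a sperm motility kinase gene (chr17:13370401-13414600, 44.2 kb). None of the 4 held a CpG island. In each, between 57.5% and 76.1% of all 31-base words of the sequence occurred again elsewhere in the mm9 genome, against a median of 1.45% over the members. Alignment was done with bowtie under its default settings, which report 1 place for a read that fits several. The part of such reads in these peaks was not tested. Over 50% of the words recurred in 7 members in all, the others being Gm7334, Oxct2a and Oxct2b with Gm17244, and in 18 shared promoter peaks. Without these 7, there were 253 members, of which 89.3% held an island.

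Among members of mostly unique sequence the widest covered Pax3, a factor of neural crest and muscle progenitors (chr1:78179601-78218200, 38.6 kb). It reached 24.5 kb upstream and 14.1 kb downstream of the start site, held 4 CpG islands and covered 56.9% of a K27R region of 67.8 kb. No EZHIP peak was called in that region, and the nearest lay 88.2 kb away. The next widest lay at Dbndd1 and Gas8, a component of motile cilia (chr8:126030601-126061800, 31.2 kb), and at Lhx6, a factor of forebrain interneurons (chr2:35942601-35966400, 23.8 kb, with 5 islands). They were followed by Grb10, an imprinted adaptor of growth factor receptors (chr11:11922601-11943600, 21.0 kb), by Irx5 with 4933436C20Rik (chr8:94876801-94896200, 19.4 kb) and by 0610012H03Rik (chr2:105053001-105070200, 17.2 kb). Each of these 6 had 1.38% to 7.22% of recurring words and at least 1 island.

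The members lay in regions that carried the mark in K27R cells. Of the 260 peaks, 259 overlapped a K27R region and 247, or 95% (91.6 to 97.3), lay wholly inside one, each in a region of its own. For shared promoter peaks 96.6% lay wholly inside. For K27M-only peaks without a start site it was 92.3% (89.9 to 94.4), so that this trait was common to K27M peaks. The K27R list was not used by the rule, but K27R regions spanned 497 Mb of the chromosomes read here. Of all protein-coding start sites 28.2% lay in a K27R region, against 99.3% of the 278 start sites of members. The single member outside K27R regions was a peak of 1.4 kb at Bhlhe41, a circadian bHLH repressor (chr6:145812801-145814200), which lay 2574.8 kb from the nearest EZHIP peak and held an island over its whole 1400 bp.

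The K27R regions that held K27M-only promoter peaks were shorter than those that held shared ones. Their median length was 39.8 kb (31.8 to 49.2, quartiles 17.3 and 83.1 kb), against 117.6 kb (111.6 to 130.0) for shared promoter peaks. The median was lower for K27M-only peaks in every class of K27M peak width, but the intervals stood apart only from 4 to 8 kb, with 39.2 kb (31 to 52.6) and 70.0 kb (60.6 to 87.0). They overlapped under 4 kb, with 29.0 kb (21.2 to 45.0) and 46.9 kb (35.2 to 74.4), from 8 to 16 kb, with 56.4 and 114.7 kb, and narrowly at 16 kb or more, with 76.8 kb (67.8 to 160.0) and 179.0 kb (159.8 to 188.2). The share of the region that the K27M peak covered was alike over all widths, at 12.4% (10.1 to 15.0) for K27M-only and 12.4% (11.5 to 13.1) for shared promoter peaks. Among peaks from 4 to 8 kb it was 14.8% (11.4 to 18.7) against 8.44% (6.89 to 9.95), and in the other 3 classes the intervals overlapped. In 203 of 260 cases, or 78.1% (72.5 to 83.0), the member was the sole K27M peak of its region, against 54.0% (51.4 to 56.7) of shared promoter peaks. Within each width class the intervals of these shares overlapped, for example 80.2% (71.9 to 86.9) and 71.9% (66.7 to 76.7) from 4 to 8 kb.

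**Figure D3:**
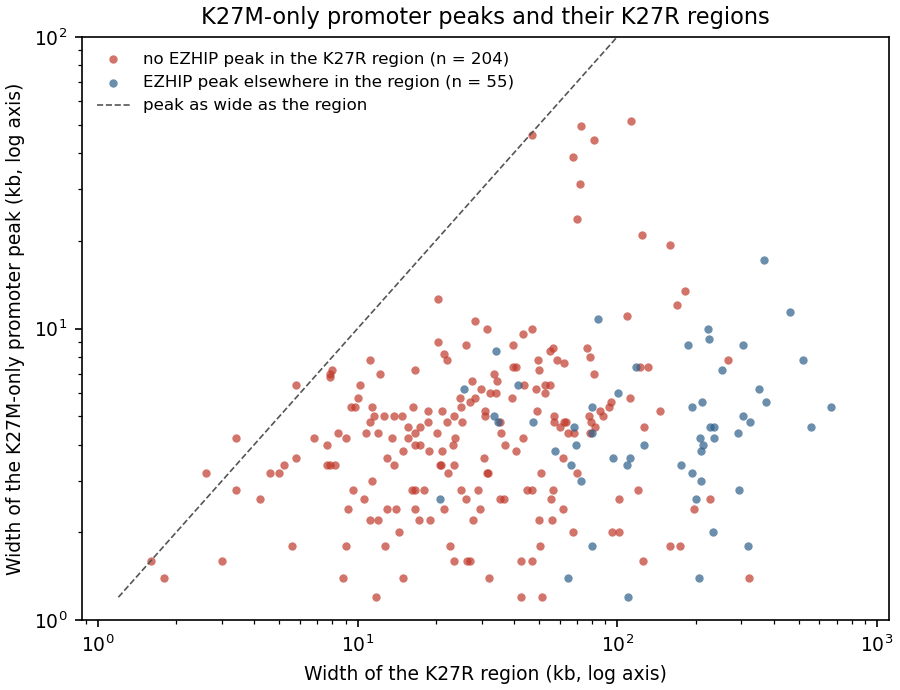
Width of each K27M-only promoter peak (y axis, kb, log scale) against the length of the K27R region that held it (x axis, kb, log scale). Red points are the 204 members whose region held no EZHIP peak, blue points the 55 members with an EZHIP peak elsewhere in the region. The dashed line marks equal lengths. Most points lie far under the line, and the blue points sit at the long regions, with a median of 194.4 kb.

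The coverage of the K27R region ranged from 0.437% to 100%. It was above 50% for 28 members and below 5% for 66. The K27M peak covered the whole region at Gm996 (region of 5.8 kb), at Npr1, a natriuretic peptide receptor (3.4 kb), and at Foxa3, a liver factor (2.6 kb). It covered 98.7% at A530032D15Rik and 90.0% at Unc5d (7.2 of 8.0 kb). Low coverage was the rule in long regions, as at Hrh1, a histamine receptor, where a peak of 5.4 kb covered 0.81% of 663.0 kb. At 4931408C20Rik, whose start window held no CG dinucleotide, a peak of 1.6 kb covered 87.5% of a region of the same length and began 200 bp before it.

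Around the 278 start sites the K27M peaks were compact and the K27R regions were broad. At 4.9 kb upstream and downstream, K27M peaks covered 9.71% and 11.9% of the sites, while K27R regions covered 80.6% and 81.3%. At 19.9 kb K27R regions still covered 44.6% and 46.8%. For shared promoter peaks the K27M coverage at 4.9 kb was 55.1% and 64.5%, that of EZHIP peaks 37.6% and 49.0%, and that of K27R regions 94.3% and 96.5%. The member peaks reached further into the gene than upstream of it, with medians of 2.50 kb downstream and 1.82 kb upstream, and the downstream side was longer for 183 of 278 start sites, or 65.8% (59.9 to 71.4). The K27M coverage of shared promoter peaks at 4.9 kb was also higher downstream, so that this was not particular to members. Of the summed length of the members, 12.9% was exonic, 45.7% intronic and 41.3% intergenic, against 7.79%, 38.1% and 54.1% in shared promoter peaks. Shared peaks were wider, these shares were not taken by class of width, and the part of width in the difference was not tested.

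**Figure D4:**
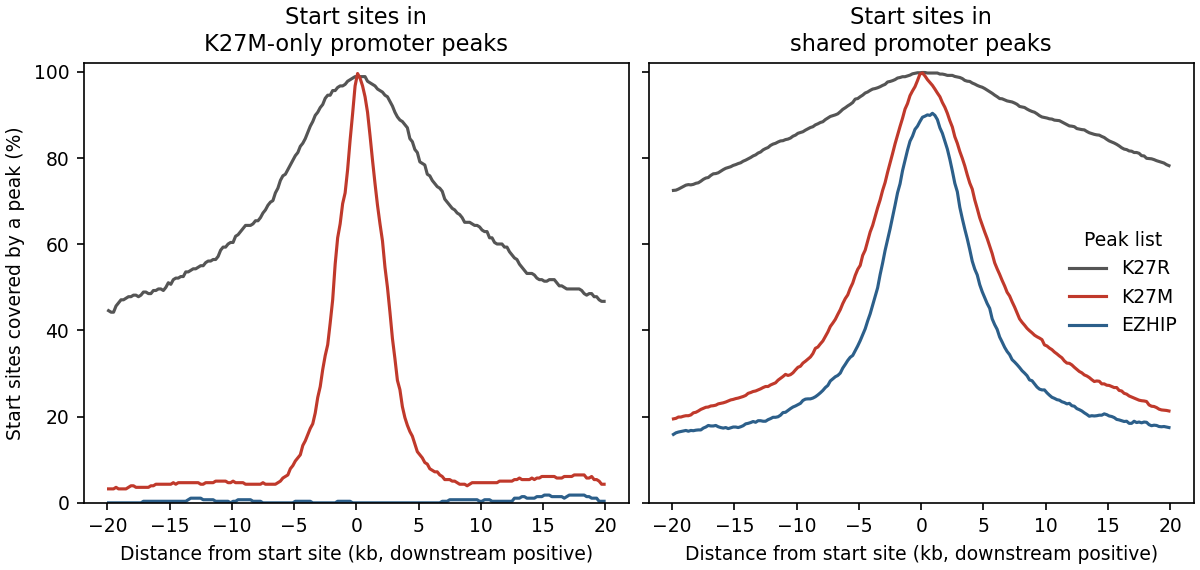
Percent of protein-coding start sites covered by a peak of each list (y axis) by distance from the start site (x axis, kb, downstream positive), at left for K27M-only and at right for shared promoter peaks. At left the K27M curve falls from 99.6% at the start site to about 10% at 5 kb while the K27R curve stays above 80%, and the EZHIP curve is near 0 because the members were chosen so. At right the EZHIP curve runs under the K27M curve.

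The distance from a member to the nearest EZHIP peak was a median of 298.0 kb (226.8 to 377.8, quartiles 112 and 823 kb), and it was over 1 Mb for 56 members and at most 100 kb for 60. In 204 cases, or 78.5% (73.0 to 83.3), the K27R region that held the member contained no EZHIP peak at all, so that EZHIP cells had no called peak anywhere in it. These regions had a median length of 28.3 kb. The other 55 regions had a median length of 194.4 kb and held a median of 1 EZHIP peak and at most 13, and the member lay a median of 32.2 kb from the nearest one. The K27M peaks themselves were of like width in both settings, with medians of 4.4 and 4.6 kb. Of the 587 K27M-only peaks without a start site, 235 lay in a K27R region without an EZHIP peak. The K27R regions of that class were longer, with a median of 124.4 kb against 39.8 kb for members. Its peaks lay a median of 58.2 kb from the nearest EZHIP peak. The chromosomes read here held 12093 K27R regions and 4890 EZHIP peaks, so that regions without an EZHIP peak need not be particular to members. The rule also bars EZHIP peaks from the member itself. The share over all K27R regions was not taken, so that the 78.5% cannot be called a trait of members. The part of region length in it was not tested. The farthest members lay at Ptprd, a receptor phosphatase of neurons (6988.6 kb), Gm9934 (5110.0 kb), Lrrtm1 (4791.2 kb), Epha5, an ephrin receptor (4101.6 kb), and Nkain2 (3614.4 kb). Of the 278 genes, 19, or 6.83% (4.16 to 10.5), had an EZHIP peak elsewhere in the gene body, against 10.9% of all protein-coding genes and 14.9% of genes with a K27R region and no K27M peak at the start site. The rule lowers this share, since it bars EZHIP peaks from the start. Among the 19 were Auts2, Dlgap1 and Lsamp, which were chosen after their values were seen.

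At the edge of the rule a few members stood close to EZHIP peaks. Just inside it was Gm10318, whose peak of 1.8 kb abutted an EZHIP peak with no gap. The EZHIP peak next to Myrip, a linker of myosin and Rab proteins, was 1.8 kb away, and the gaps were 3.8 kb at Ttc34, 6.0 kb at Gpr6 and 6.4 kb at the start sites of Kctd19 and Lrrc36. By the number of bases under EZHIP peaks, the shared promoter peaks just outside it were those at Camk2n2 (400 bp, 12.5% of the K27M peak) and Tnfrsf8 (800 bp, 36.4%), followed by short peaks that were mostly covered, at Ngb and Slc24a2 (1000 bp, 83.3%) and Nxph2 (1200 bp, 85.7%). EZHIP peaks covered a median of 73.5% of a shared promoter peak. They covered under 10% of 5 wide ones, which were singled out after their values were seen and lay at 4930467E23Rik (1.37% of 87.4 kb), Gm15319 (4.47% of 76.0 kb), Dbx1, a homeobox factor of the neural tube (5.41% of 22.2 kb), Heatr7b1 (5.63% of 56.8 kb) and Fcgr1, an Fc receptor (5.76% of 27.8 kb).

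In 18 member peaks there were 2 protein-coding start sites, and none had more. In 9 of these the start sites pointed away from each other. In 6 the start sites pointed towards each other and the genes overlapped there, and in 3 both models had 1 symbol. The widest of the 18 were those at Sp110 and Sp140, at A530032D15Rik, at Dbndd1 and Gas8, at Irx5 and 4933436C20Rik, and at Klhl29 and 2810032G03Rik, whose start sites were 188 bp apart. At Kctd19 and Lrrc36 the start sites were 69 bp apart in a peak of 4.4 kb. A start of a non-coding gene also lay in 27 members, of which 10 held a lincRNA and 3 a miRNA. The member genes were long, with a median of 36.6 kb (27.1 to 54.7) against 22.0 kb (19.6 to 25.1) for genes of shared peaks and 15.5 kb for all genes. Within every class of peak width the intervals of both peak kinds overlapped, for example 48.5 kb (30.7 to 85.4) and 37.9 kb (31.5 to 45.6) from 4 to 8 kb.

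**Figure D5:**
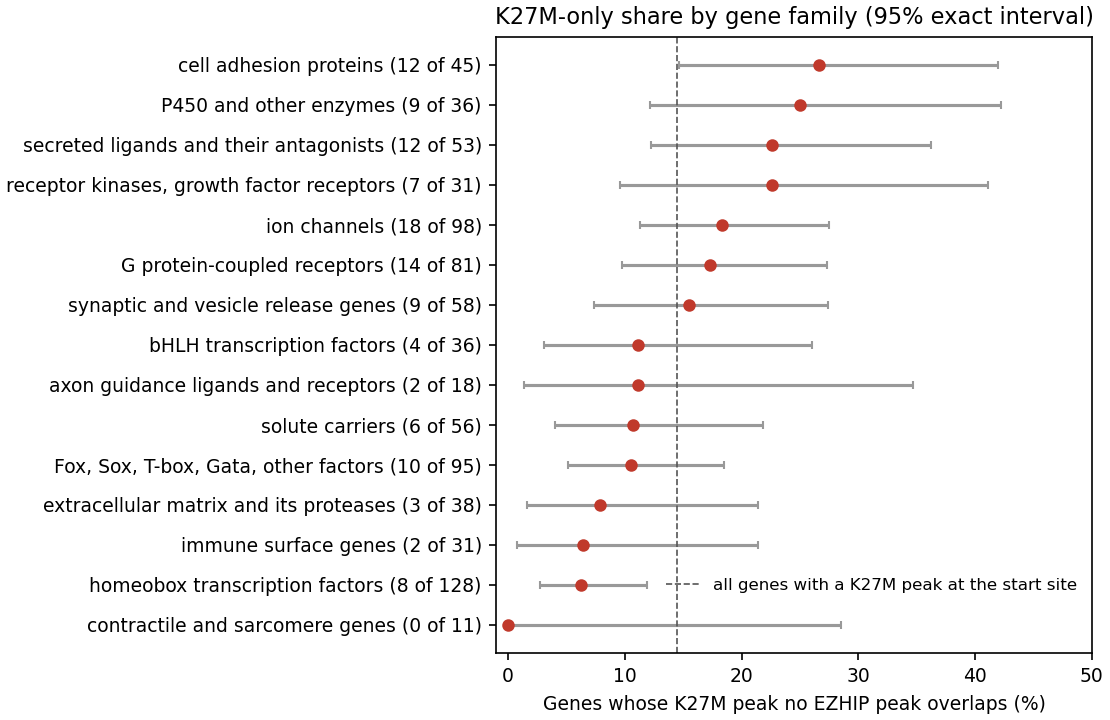
For each gene family with at least 10 genes marked by a K27M peak at the start site, the percent of these genes whose peak was K27M-only (x axis), with the 95% exact interval and the counts. The dashed line is the 14.5% of all marked genes. Homeobox factors lie left of the line with 6.25%, and cell adhesion proteins have the highest value with 26.7%.

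The genes were read by 17 families matched by symbol pattern, to which 118 of the 278 belonged and 160 did not. The patterns for Tcfap2 and Fam38 were written after the members were seen. The families do not hold every gene of a kind, since the members Cadps2 and Sdk1 were in none of them. The background was 14.5% among all genes with a K27M peak at the start site. Of 128 homeobox factors with a K27M peak, 8 were K27M-only (6.25%, 2.74 to 11.9), with an interval below the background, and the shared ones had a median peak width of 47.7 kb. In the class of 16 kb or more, which held 113 of the 128, 3 were K27M-only (2.65%, 0.551 to 7.56), with an interval that included the 1.91% of all genes of that class. From 8 to 16 kb it was 2 of 9 (2.81 to 60.0%), against 4.85% of all genes. The 8 were Pax3, Lhx6, Irx5, Alx4, a factor of craniofacial bone and limb (13.4 kb), Pax1, a factor of the sclerotome (8.8 kb), Nkx6-3 (6.0 kb), Hhex (2.6 kb) and Phox2a, a factor of autonomic neurons (1.6 kb). Pax1 was counted here by its symbol pattern and is not itself a homeobox gene.

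For the Fox, Sox, T-box, Gata and developmental zinc finger factors, 10 of 95 were K27M-only (10.5%, 5.16 to 18.5). The widest of their peaks lay at Tcfap2d (12.6 kb), Foxc2, a mesoderm and lymphatic factor (8.8 kb), Gata6, an endoderm and heart factor (7.8 kb), and Eomes, a T-box factor of mesendoderm (6.0 kb). Tcfap2d was counted here by a symbol pattern written after the members were seen, and it is none of the named kinds of factor. The bHLH factors had 4 of 36 (11.1%), which were Hey1, a Notch target (5.8 kb), Npas3 (4.2 kb), Npas4, an activity-induced factor of neurons (1.4 kb), and Bhlhe41. The intervals of both families included the background.

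The shares of signalling families had intervals that included the background, so no difference can be read from them. From 4 to 8 kb, 4 of 13 ligands (9.09 to 61.4%) and 3 of 9 receptor kinases and growth factor receptors (7.49 to 70.1%) were K27M-only. For G protein-coupled receptors it was 6 of 26 (8.97 to 43.6%), against 27.2% of all genes in that class. Among secreted ligands and their antagonists 12 of 53 were K27M-only (22.6%, 12.3 to 36.2). Rspo3, an enhancer of Wnt signalling, had a peak of 10.6 kb, Wnt4 of 10.0 kb, Wnt6 of 9.6 kb, and Nrg3, a ligand of ErbB4, of 6.6 kb. The Wnt4 peak (chr4:136827401-136837400) covered 21.3% of a K27R region of 47.0 kb and the Wnt6 peak (chr1:74810201-74819800) covered 22.1% of 43.4 kb, both regions without an EZHIP peak. Receptor kinases and other growth factor receptors had 7 of 31 (22.6%). The peak at Kit, the receptor of stem cell factor (chr5:75967601-75976400), spanned 8.8 kb and 33.6% of its K27R region. Acvr2b, an activin receptor, had 7.4 kb, Epha5 4.4 kb and Flt1, a VEGF receptor, 4.2 kb. G protein-coupled receptors had 14 of 81 (17.3%, 9.78 to 27.3), led by Gpr6 (9.2 kb), Hrh1 (5.4 kb) and, at 5.2 kb each, Gpr12, Hcrtr2, an orexin receptor, and P2ry1, a nucleotide receptor.

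Ion channels had the most members of the families, 18 of 98 (18.4%, 11.3 to 27.5), with an interval that included the background of 14.5%. From 4 to 8 kb it was 11 of 27 (22.4 to 61.2%), against 27.2% of all genes in that class. The widest peaks lay at Chrnb2, a nicotinic receptor subunit (10.0 kb), and Grik3, a kainate receptor subunit (8.6 kb). They were followed by Kcnk2, a background potassium channel (7.8 kb), and Fam38b, the older symbol of the mechanosensitive channel Piezo2 (7.0 kb). Cell adhesion proteins had 12 of 45 (26.7%, 14.6 to 41.9), which was the highest share of the families with 10 or more marked genes, and the lower end of the interval lay next to the background. In every class of peak width their interval included the share of all genes, for example 4 of 11 (10.9 to 69.2%) from 4 to 8 kb. Lrrtm1 (9.0 kb) and Slitrk5 (8.2 kb), both synaptic adhesion proteins, had the widest peaks, followed by Lrrc43 (6.4 kb) and Cadm1 (5.0 kb). Lrrc43 was counted here by its symbol pattern and is not shown to be an adhesion protein. The peaks at Lrrtm1 and Slitrk5 covered 36.3% and 38.0% of K27R regions of 20.4 and 21.6 kb. Synaptic and vesicle release genes had 9 of 58 (15.5%), among them Nsg1 (8.8 kb), Nptx2, a neuronal pentraxin (7.2 kb), Lgi2 (5.0 kb) and Dlgap1, a postsynaptic scaffold (3.8 kb). Axon guidance genes had 2 of 18, the netrin receptors Unc5d (7.2 kb) and Dcc (7.0 kb), which covered 90.0% and 89.7% of short K27R regions.

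The remaining families held few members. Of the cytochrome P450 and other metabolic enzymes 9 of 36 were K27M-only (25%, 12.1 to 42.2), and the 4 widest peaks lay at genes of glycan synthesis, the sulfotransferases Chst2 (8.0 kb) and Chst1 (5.4 kb) and the sialyltransferases St8sia2 (4.8 kb) and St6galnac3 (4.6 kb). Solute carriers had 6 of 56 (10.7%), with Slc34a1 and Slc5a7 at 4.6 kb and Slc35f1 and Slc7a10 at 4.0 kb. Genes of the extracellular matrix and its proteases had 3 of 38 (7.89%), at Spon1 (7.8 kb), Adamts19 (5.4 kb) and Lamb1 (4.4 kb). Immune surface genes had 2 of 31, at H2-K1, a class I antigen presenting molecule (7.4 kb), and Klrg2 (5.0 kb), and Zfp genes had 2 of 8, at Zfp488 (2.6 kb) and Zfp800 (1.6 kb). None of 11 contractile genes was K27M-only, which an exact interval bounds at 28.5%, and none of 2 ribosomal, proteasome or RNA polymerase genes.

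Across chromosomes the K27M-only share of promoter peaks ran from 5.36% (3 of 56, 1.12 to 14.9) on chromosome 13 to 22.5% (9 of 40, 10.8 to 38.5) on chromosome 16, with overlapping intervals. As a check of the cell type, the start site of 1 of 13 fibroblast markers lay in a K27R region, at Pdgfra in a shared promoter peak, while Col1a1, Col3a1, Vim, Twist1, Prrx1 and the others lay in no K27R region. Of 7 markers of other lineages, 4 lay in K27R regions, at Epcam, Cdh1, Cdh5 and Snap25. Snap25, a vesicle fusion protein of neurons, was itself a member with a peak of 2.8 kb, 2959.4 kb from the nearest EZHIP peak. Peaks show no expression, so this check bears on the mark alone.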

How the data were processed

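H3K27me3 ChIP-Seq peak lists of 3 libraries (K27M, K27R and EZHIP) were used, with 1 library per group, and groups were taken from the sample titles. According to the study's methods, bowtie1 placed reads on mm9 and on a second species' genome for scaling, and the authors called broad peaks with MOSAiCS-HMM. Those methods state a maximum gap of 10000 bp for joining regions, and the deposited lists hold smaller gaps (0, 1200 and 5200 bp), so that they may stem from other settings, which bears on every count and width here. The submitters' processing notes name Bowtie 1.0.0 and deepTools. The deposited lists hold chromosome, start and end on a grid of 200 bp, with no score, and the depth of the libraries is unknown. Positions are printed counting from 1.

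Start sites are the 5′ ends of protein-coding genes in GENCODE vM1, and an overlap is at least 1 bp. Symbols are those of this annotation. Islands were segments over 200 bp from a score of 17 per CG and -1 per other base, of 50% or more G+C with a ratio of observed to expected CpG over 0.6, which gave 26799 islands. A peak was called mostly repeated where over 50% of its 31-base words occurred elsewhere in the genome. Exonic, intronic and intergenic shares are by base. No test was made, since peaks of 1 library are no replicates.

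The members, gene lists and alternatives were chosen with earlier results of these data known. The families match symbols by pattern. The patterns for the older symbols Tcfap2 and Fam38 and a list of imprinted genes were written after the members were seen. Genes were named by rule: the 10 widest members, the 5 with the most start sites (ties by width), the 5 with the largest share of their K27R region, the 5 nearest to and farthest from an EZHIP peak, the 5 shared peaks with the fewest bases under EZHIP peaks, those outside K27R regions, the 5 highest and lowest CG counts at the start, up to 4 genes per family by peak width, and the cell type markers. Other names were chosen after their values were seen. Alternatives changed the overlap, peak joining, start sites, peak width, chromosomes, island length and the use of medians. Interval and island functions were tested on simulated data. Tools were scipy 1.17.1, pandas 2.3.3, numba 0.67.0, numpy 2.4.6 and matplotlib 3.10.9 under Python 3.11.15.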

Additional observations from a re-analysis of the deposited data

How the results depend on the processing

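No paired analysis was possible because each group had 1 library and no test was run. Of 68 alternative values, 58 moved by less than their interval or within 1.5 times the count, and 10 moved further. With K27M peaks of at least 5000 bp there were 105 member peaks and 113 genes, with a median width of 7.0 kb and 16.8% of the K27R region covered, as a filter on width brings by construction. An island of at least 500 bp lay in 67.7% of members. By width, an island lay in 93.4% of members from 4 to 8 kb and in 60.0% of those of 16 kb or more. Means in place of medians were 5.75 kb for the width, 19.9% for the region covered and 678.0 kb for the distance to an EZHIP peak. Counts of members ranged from 253 to 303 peaks when neighbours were joined, when repeated sequence was left out, with other overlaps, with all transcript starts and with chromosome X. No read counts were given, so that a peak missing from the EZHIP list cannot be told apart from signal under its threshold.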

Other observations

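Imprinted genes were looked at as a list written after the members were seen, with 58 genes on the chromosomes used. A K27M peak lay at the start site of 10 of them, and 4 of these were K27M-only (40%, 95% exact interval 12.2 to 73.8), beside 14.5% of all genes with a K27M peak at the start. They were Grb10, with a peak of 21.0 kb in a K27R region of 124.2 kb, Kcnk9, a potassium channel gene (4.8 kb), Magel2, a gene of the Prader-Willi region (3.6 kb), and Peg3, a paternally expressed zinc finger gene (3.2 kb). The Peg3 peak covered 69.6% of a K27R region of 4.6 kb, 1882.8 kb from the nearest EZHIP peak. Lists do not tell the parental alleles apart, and since the list followed the members, its share supports nothing.

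Some named member peaks differed in how much of the gene they held. The Irx5 peak contained the whole gene of 3.66 kb, and those at Foxc2 and Gpr6 contained genes of 2.72 and 2.30 kb. The peak at Nrg3 reached over 0.324% of a gene of 1104.2 kb, that at Dcc over 0.414% of 1092.3 kb and that at Sdk1 over 0.386% of 974.1 kb, so that these peaks lay at the start of very long neuronal genes. At these 3 genes the peak spanned 6.6 to 7.0 kb, it overlapped 1 exon, and the K27R region spanned 7.8 to 33.4 kb.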
